A study of Mus musculus with 8 samples.

Results

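The loci of the epidermal growth factor (EGF) receptor family and its ligands were examined for accessible chromatin in mouse mammary gland epithelial cells. They comprised 3 receptor genes (*Egfr*, *Erbb2* and *Erbb3*) and 6 ligand genes (*Areg*, *Ereg*, *Epgn*, *Hbegf*, *Tgfa* and *Nrg1*), 9 of 21951 annotated protein-coding genes. A locus was the annotated span of the gene plus 20 kb on each side, and a peak belonged to it if it overlapped that window. In FAIRE-seq, the DNA fragments that formaldehyde did not fix to protein are purified and sequenced, and stretches where they pile up are called as peaks. Each library was represented by a list of FAIRE peaks with a score for each peak. The peaks of 8 lists were merged into 37230 regions by an overlap of at least 1 bp, of which 45 lay in the 9 loci. They are numbered within each locus by position along the chromosome.

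EpH4 cells, a mouse mammary gland epithelial line, and EpRas cells, their H-Ras-transformed derivative, were each left untreated or treated with 1 ng/ml TGF-β3 for 8 days. Each of the 4 groups had 2 libraries, called replicates 1 and 2. EpH4 cells were grown in more fetal bovine serum than EpRas cells, so that line and serum cannot be told apart. EpRas stands for 1 transformed derivative of 1 parental line, and the comparisons ask how Ras transformation and TGF-β change accessible chromatin at these genes.

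EGF family ligands are made as membrane-anchored precursors that are shed by metalloproteases and bind receptor tyrosine kinases, which then dimerize and signal through Ras and MAP kinases. *Erbb2* encodes a receptor with no known ligand of its own that acts as a partner of the others, whereas *Erbb3* encodes a neuregulin receptor with a weak kinase. In the mammary gland, amphiregulin and EGFR are required for ductal growth at puberty, and *ERBB2* is a well-known oncogene of breast cancer.

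The sequences below are the regions on which the results turn: 2 from the *Egfr* locus, the *Erbb2* start, 3 from the *Areg*, *Ereg* and *Epgn* cluster, and 1 from *Nrg1*. They are shown on the + strand of GRCm38.p6, the build to which mm10 belongs, as the 300 bp around the midpoint of each region, except that of *Erbb2*, which ends 1 base before the annotated gene start. Capitals mark words of 3 motif families searched on both strands, which were TGAGTCA (AP1, printed as TGACTCA where it lies on the other strand), CGGAA with A or C before it and A or G after it (ETS), and TGTGGTT (RUNX).
Egfr region 1, chr11:16760067-16760366: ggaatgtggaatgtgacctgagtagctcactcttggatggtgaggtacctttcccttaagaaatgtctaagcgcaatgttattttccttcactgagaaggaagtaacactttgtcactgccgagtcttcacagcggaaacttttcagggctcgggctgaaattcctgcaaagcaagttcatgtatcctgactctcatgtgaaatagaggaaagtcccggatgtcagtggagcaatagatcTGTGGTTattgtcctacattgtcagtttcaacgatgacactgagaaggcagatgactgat
Egfr region 6, chr11:16830594-16830893: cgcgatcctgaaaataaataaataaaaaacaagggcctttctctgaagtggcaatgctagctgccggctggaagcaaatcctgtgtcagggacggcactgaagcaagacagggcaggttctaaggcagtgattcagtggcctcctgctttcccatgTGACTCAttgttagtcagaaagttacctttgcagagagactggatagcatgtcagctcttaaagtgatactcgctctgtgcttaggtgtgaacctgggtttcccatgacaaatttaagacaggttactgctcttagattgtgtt
Erbb2 region 2, chr11:98412243-98412469: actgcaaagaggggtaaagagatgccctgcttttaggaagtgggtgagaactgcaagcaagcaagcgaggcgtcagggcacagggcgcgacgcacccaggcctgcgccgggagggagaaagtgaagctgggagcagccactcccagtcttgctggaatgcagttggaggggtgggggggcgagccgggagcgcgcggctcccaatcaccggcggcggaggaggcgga
Areg region 1, chr5:91156695-91156994: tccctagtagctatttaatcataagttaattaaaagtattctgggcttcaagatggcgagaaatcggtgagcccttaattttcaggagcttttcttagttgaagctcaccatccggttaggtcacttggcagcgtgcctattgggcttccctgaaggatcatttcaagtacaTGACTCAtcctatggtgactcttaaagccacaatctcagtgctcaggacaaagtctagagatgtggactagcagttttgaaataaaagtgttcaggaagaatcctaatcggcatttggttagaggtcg
Ereg region 3, chr5:91083073-91083372: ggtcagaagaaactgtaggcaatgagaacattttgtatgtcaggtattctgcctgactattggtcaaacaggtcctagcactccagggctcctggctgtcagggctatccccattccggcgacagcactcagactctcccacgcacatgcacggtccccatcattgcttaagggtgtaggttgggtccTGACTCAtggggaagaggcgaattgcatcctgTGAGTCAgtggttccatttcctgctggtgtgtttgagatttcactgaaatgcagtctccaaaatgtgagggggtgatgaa
Epgn region 2, chr5:91038613-91038912: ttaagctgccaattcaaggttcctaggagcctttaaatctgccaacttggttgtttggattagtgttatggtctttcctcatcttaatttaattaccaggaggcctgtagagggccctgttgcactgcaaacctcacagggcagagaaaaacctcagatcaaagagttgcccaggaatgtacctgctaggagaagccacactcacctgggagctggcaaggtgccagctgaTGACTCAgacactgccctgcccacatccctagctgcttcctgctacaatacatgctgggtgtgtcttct
Nrg1 region 4, chr8:32199842-32200141: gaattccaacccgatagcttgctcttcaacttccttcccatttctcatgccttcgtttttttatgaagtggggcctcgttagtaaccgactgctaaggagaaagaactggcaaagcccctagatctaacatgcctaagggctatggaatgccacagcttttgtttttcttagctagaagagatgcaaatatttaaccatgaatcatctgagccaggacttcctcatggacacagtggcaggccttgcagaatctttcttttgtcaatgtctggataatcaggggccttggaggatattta

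The AP1 word stood in 15 of the 45 regions (33.3%), close to its share of 34.7% among 37221 regions searched. An ETS word stood in 8 regions (17.8%, against 12.3%) and the RUNX word in 2 (4.44%, against 11.5%). In the cluster of *Areg*, *Ereg* and *Epgn*, all 4 regions that were called in 7 or 8 libraries held the AP1 word, while 2 of 8 such regions in the other loci (25%) and 33.9% of 6788 such regions over the genome did. This subset was singled out after its values had been seen. Among all regions of the cluster, 5 of 10 (50%) held the word. In *Ereg* region 3 the word occurred at chr5:91083261-91083267 and again at chr5:91083293-91083299, once on each strand. The RUNX word occurred in *Egfr* region 1, at chr11:16760307-16760313, and in *Nrg1* region 8. A match describes the letters of the window and not a bound factor.

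The 8 lists held 10821 to 27337 peaks. The longest belonged to replicate 1 of TGF-β-treated EpRas cells and the shortest to replicate 2 of TGF-β-treated EpH4 cells. Read depth was unknown, so a region missing from a list was not distinguishable from one that lay just under the authors' limit. Peaks within 2 kb of a transcription start site of 6 epithelial marker genes were found in 0 (*Epcam*) to 5 (*Krt8* and *Cldn4*) of 8 libraries, and at *Cdh1*, which encodes E-cadherin, in 4 EpH4 and 0 EpRas libraries. Of 6 genes that mark other cell types, none had such a peak in any library.

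*Egfr*, which encodes the receptor of EGF, amphiregulin and TGF-α, spans chr11:16752203-16918158 on the + strand and held 7 regions, all in its introns. Its start site had no peak in any library. EpH4 cells had 3 and 3 peaks without and 4 and 2 with TGF-β in the locus, and EpRas cells 2 and 2 without and 5 and 1 with it. The numbers of the lines overlapped (mean 2.5 ± 1.73 in EpRas and 3 ± 0.816 in EpH4 cells, SD, n = 4 each; exact permutation p = 0.8, two-sided).

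*Egfr* region 1 (chr11:16760029-16760403), in an intron 8.01 kb after the gene start, was the 1 region of the 45 that was called in all 4 EpH4 and no EpRas library. Over the genome, 0.752% of regions showed that pattern and 1.98% the opposite one, which no member region showed. Its score percentile, the share of peaks in the list with an equal or lower score, was 0.361 and 52.7 in untreated and 13.6 and 4.57 in treated EpH4 cells. It thus lay low in 3 of the 4 lists, and when each list was reduced to its 10821 highest-scored peaks it was called in 2 EpH4 and 0 EpRas libraries.

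*Egfr* region 3 (chr11:16791222-16791544), also intronic and with an AP1 word, was called in all 4 EpRas and 2 EpH4 libraries. Its percentiles were 1.21 in untreated EpH4 replicate 1, 88 in treated EpH4 replicate 1, 24.4 and 25.7 in EpRas cells without TGF-β, and 58.9 and 48.7 with it. *Egfr* region 6 (chr11:16830569-16830917) lay 78.5 kb into the gene, at the start of *Egfros*, a noncoding gene, and was called in 7 libraries. It stood at 14.3 and 48 in untreated and 71.7 and 70.9 in treated EpH4 cells. In EpRas cells it stood at 65.5 and 71.1 without TGF-β and at 64.7 in the first treated library, and was not called in the second. *Egfr* regions 2, 4 and 7 were called in 1 library each and region 5 in 2.

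The limits of the window mattered at *Egfr*. A region at chr11:16731822-16732196, at -20.2 kb from the gene start, ended 7 bp outside the window and was called in all 8 libraries, at percentiles of 84.3 to 99. It was therefore not among the 45 regions. Its median percentile was 91.5, whereas no *Egfr* region exceeded 88 in any library. At the other 8 genes, the nearest outside region lay 1072 to 17365 bp from the window, and of all 45 regions the one nearest to an edge from inside was *Erbb3* region 1, which began 146 bp within it.

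*Erbb2*, on chr11:98412470-98437716, had 3 and 2 peaks without and 4 and 3 with TGF-β in EpH4 cells, and 3 and 2 without and 2 and 2 with it in EpRas cells. The means were 2.25 ± 0.5 in EpRas and 3 ± 0.816 in EpH4 cells (SD, n = 4 each; exact permutation p = 0.371, two-sided). Of its 5 regions, 3 lay within 2 kb of the start of a neighboring gene, *Pgap3*, *Mien1* or *Grb7*, and 1 at its own start.

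*Erbb2* region 2 (chr11:98412225-98412559) covered the start of *Erbb2* and was called in all 4 TGF-β-treated libraries and in 1 untreated library. Its percentiles were 27.8 and 8.75 in treated EpH4 cells, 15.3 in untreated EpRas replicate 1, and 74.9 and 71.6 in treated EpRas cells. The highest values were thus those of treated EpRas cells, in which both libraries exceeded every other library. In EpH4 cells it met the rule for a gain, called in both treated and in neither untreated library, as did *Erbb3* region 1. These were 2 of 45 regions, beside 3.27% over the genome, and with equal list lengths the count was 0, beside 870 of 37230 regions over the genome.

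*Erbb2* region 1 (chr11:98400091-98400595), over a coding exon at the start of *Pgap3* and with 2 ETS words, was called in both untreated EpRas libraries at percentiles of 70.2 and 55.9 and in neither treated one. It was the 1 member region lost with TGF-β in EpRas cells, a pattern of 0.927% of regions over the genome. In EpH4 cells it was called in 1 untreated library at 40.7 and in both treated libraries at 0.273 and 16.4. *Erbb2* region 3 (chr11:98418909-98419305), in an intron of *Erbb2*, was called in 3 EpH4 libraries at 71.9, 41.6 and 27.8 and in no EpRas library.

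*Erbb3*, on chr10:128567523-128589652 on the - strand, had 5 regions, and all lay within 2 kb of the start of another gene. EpH4 libraries had 2 and 3 peaks without and 4 and 4 with TGF-β, and EpRas libraries 4 and 3 without and 3 and 3 with it, so that the means of the lines were equal (3.25 each, SD 0.957 in EpH4 and 0.5 in EpRas cells). The gene's own start had no peak in any library. Regions 2 and 3, at the starts of *Rpl41*, a ribosomal protein gene, and of *Pa2g4*, which encodes an ERBB3-binding protein, were called in all 8 libraries. Region 1, between *Rpl41* and *Zc3h10*, was called at 31.1 and 45.8 in treated EpH4 cells, in neither untreated EpH4 library, and in all EpRas libraries at 32.7 to 63.7. Region 5 (chr10:128584447-128584708), in an intron near *Mir6917*, was called in 3 EpH4 libraries at 64.8, 75.9 and 50.7 and in no EpRas library.

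*Areg*, *Ereg* and *Epgn*, which encode the ligands amphiregulin, epiregulin and epigen, are neighbors on chromosome 5. *Areg* (chr5:91139599-91148432) had exactly 1 peak in every library. This region (chr5:91156686-91157002) was intergenic, 17.2 kb after the gene start, with an AP1 word, and had percentiles of 86 and 91.6 in untreated EpH4, 78.3 and 75.5 in treated EpH4, 80.9 and 90.5 in untreated EpRas and 86.1 and 81.8 in treated EpRas cells. All values were high and the groups lay close together (mean 83.8 ± 5.68, SD, n = 8). Its mean was above that of 77.9% of the 4259 regions that were called in all libraries. It was the 1 member region called in all 8 libraries when only peaks with a score at or above the median of all 129466 peaks were kept. The start of *Areg* itself had no peak.

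*Ereg* (chr5:91074622-91093646) had 3 and 3 peaks without and 3 and 2 with TGF-β in EpH4 cells, and 3 and 2 without and 5 and 2 with it in EpRas cells (exact permutation p = 1 between lines, two-sided, n = 4 each). *Ereg* region 3 (chr5:91083052-91083393), intronic, was called in every library. Its percentiles of 72.3 and 85.8 in untreated EpH4 cells were above those of both untreated EpRas libraries, 29.4 and 15. Treated cells gave 55.1 and 10.7 in EpH4 and 21.5 and 86.1 in EpRas cells, so that replicates differed as much as the groups. *Ereg* region 6 (chr5:91110381-91110724), intergenic between *Ereg* and *Areg*, was called in 7 libraries at 42.6 to 73.4 in EpH4 and 7.82 to 68.4 in EpRas cells. At the start of *Ereg*, region 1 was called in 1 untreated and 1 treated EpRas library (5.26 and 17.3) and region 2 in 1 untreated EpH4 library (41.7).

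*Epgn* (chr5:91027464-91035215) had 1 and 2 peaks without and 2 and 1 with TGF-β in EpH4 cells, and 1 and 0 without and 2 and 1 with it in EpRas cells (means 1.5 ± 0.577 in EpH4 and 1 ± 0.816 in EpRas cells, SD, n = 4 each; exact permutation p = 0.657, two-sided). *Epgn* region 2 (chr5:91038529-91038995), 11.3 kb after the gene start, stood at 88.8 and 83.1 in untreated and 52.9 and 46.6 in treated EpH4 cells. In EpRas cells it stood at 69.6 and was not called in the untreated pair, and stood at 14.8 and 4.27 in the treated pair. In EpH4 cells both treated libraries therefore had lower percentiles than both untreated ones. In EpRas cells they were lower than the 1 untreated library that called the region, whereas by calls the treated pair had more (2 against 1). These differences were not tested, since 2 libraries against 2 cannot reach significance in an exact test. *Epgn* region 1 was called in 3 libraries.

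*Hbegf*, on chromosome 18, encodes heparin-binding EGF-like growth factor and had the highest mean density of the 9 loci. Its peaks numbered 2 and 3 without and 4 and 1 with TGF-β in EpH4 cells, and 2 and 4 without and 4 and 4 with it in EpRas cells (mean 3.5 ± 1 in EpRas and 2.5 ± 1.29 in EpH4 cells, SD, n = 4 each; exact permutation p = 0.371, two-sided). *Hbegf* region 1, 23 kb after the gene start and beyond its end, was called in all libraries, at 5.09, 53.8, 90 and 30.4 in EpH4 and 89.8, 91.5, 79.3 and 49.2 in EpRas cells. *Hbegf* region 3, 1.69 kb after the gene start, was called in 4 libraries at 0.955 to 55.5. Region 6 was called in 3 EpRas libraries, at 10.9, 67.3 and 17, and in no EpH4 library.

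*Tgfa* (chr6:86195223-86275719), the gene of TGF-α, had 2 and 2 peaks without and 2 and 0 with TGF-β in EpH4 cells, and 1 and 0 without and 2 and 0 with it in EpRas cells. The 3 libraries without a peak included 1 from EpH4 and 2 from EpRas cells (means 0.75 ± 0.957 in EpRas and 1.5 ± 1 in EpH4 cells, SD, n = 4 each; exact permutation p = 0.486, two-sided). *Tgfa* region 2, at the gene start, was called at 66.9 in an untreated EpH4, 31.5 in a treated EpH4 and 29 in an untreated EpRas library.

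*Nrg1* (chr8:31814551-32884029, - strand) encodes neuregulin-1, a ligand of ERBB3 and ERBB4, and is the longest member. EpH4 cells had 5 and 5 peaks there without and 7 and 6 with TGF-β, and EpRas cells 6 and 5 without and 7 and 5 with it. The means of the lines were equal, and those of treated and untreated libraries were 6.25 ± 0.957 and 5.25 ± 0.5 (SD, n = 4 each; exact permutation p = 0.257, two-sided). *Nrg1* region 4 (chr8:32199774-32200209), intronic, was called in all libraries, at 83.8, 25.3, 88.4 and 57.4 in EpH4 and 91.1, 77.5, 93.3 and 88.5 in EpRas cells. *Nrg1* region 3, at the start of a shorter *Nrg1* transcript, was called in 6 libraries at 3.94 to 63.3, and the other annotated starts of the gene had no peak.

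*Nrg1* region 2 (chr8:31994148-31994412), with an AP1 word, was called in 3 EpH4 libraries at 26.1, 33 and 0.481 and in no EpRas library.

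**Figure D1:**
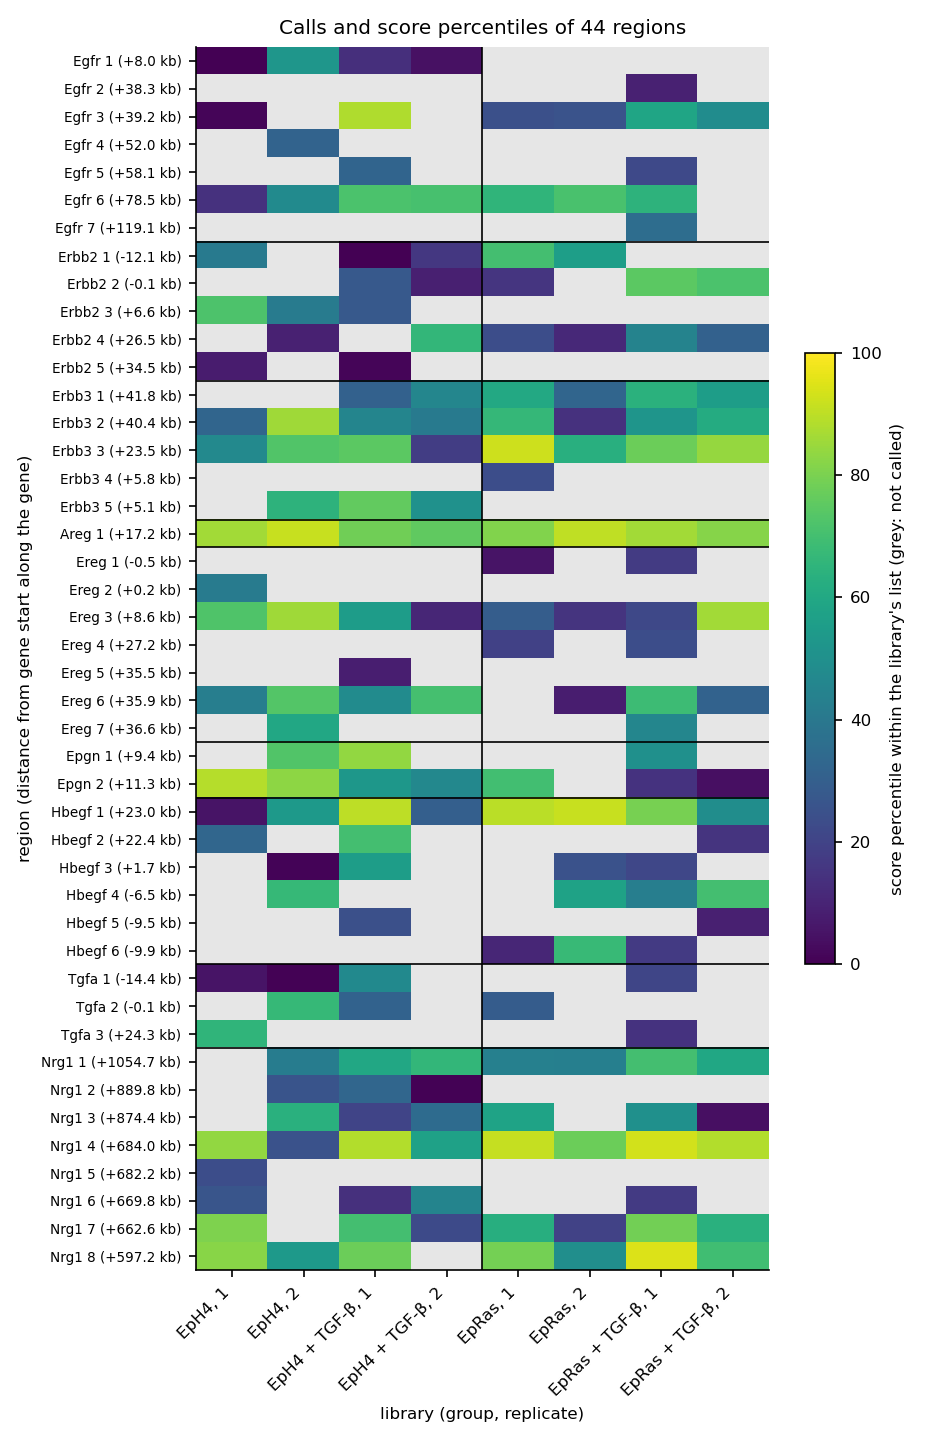
Score percentile within each library's list (color, 0 to 100) of 44 of the 45 regions (rows, with the distance from the gene start in kb) in the 8 libraries (columns, labelled by group and replicate), grey where a region was not called. *Areg* region 1 is bright in all columns, and *Egfr* region 1 is colored in the 4 EpH4 columns and grey in the 4 EpRas columns.

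Across the 45 regions, 6 were called in all 8 libraries (13.3%, beside 11.4% over the genome) and 7 in 1 library (15.6%, beside 31.6%). The 6 were *Erbb3* regions 2 and 3, *Areg* region 1, *Ereg* region 3, *Hbegf* region 1 and *Nrg1* region 4. No member region separated the treatments over both lines. Regions called in all treated and no untreated libraries made up 0.32% of the genome's regions, and the reverse 0.0188%. No member region was gained with TGF-β in EpRas cells (7.64% over the genome), lost with TGF-β in EpH4 cells (1.68%) or called in both treated EpRas libraries and no other (4.21%). These counts of 0 depended on single libraries too. Without replicate 2 of treated EpRas cells, 8 regions met the rule for a gain in EpRas cells, 2 of them called in no other group. Gains in EpRas cells also numbered 3 and 2 without replicates 1 and 2 of its untreated cells and 2 without replicate 1 of its treated cells. Losses in EpH4 cells numbered 3 without either untreated EpH4 library or without replicate 1 of treated EpH4 cells, and 1 region separated the treatments without replicate 1 of untreated EpRas cells. Leaving out a library left its group with 1 library, so that a gain or loss there rested on 1 call or 1 absence. The 8 regions were thus called, among treated EpRas libraries, in the longest list (27337 peaks) only. The 2 called in no other group were *Egfr* regions 2 and 7, at percentiles of 9.18 and 35.6. With a stricter score limit, gains in EpRas cells numbered 3, and 1 region was called in treated EpRas cells alone. No share over the genome is given for the counts under these settings.

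The number of regions that separated the lines depended on single libraries. Regions called in 3 of 4 EpH4 and no EpRas libraries numbered 3 (*Erbb2* region 3, *Erbb3* region 5 and *Nrg1* region 2, beside 1.22% over the genome), and those called in 3 of 4 EpRas and no EpH4 libraries numbered 2 (among them *Hbegf* region 6, beside 3.85%). Accordingly, the count of 1 became 3 without replicate 1 of untreated EpH4 cells, 2 without replicate 2 of treated EpH4 cells and 3 without replicate 2 of treated EpRas cells. With equal list lengths it was 0. Over all 37230 regions, 386 were then called in all EpH4 and no EpRas libraries, and 279 the other way.

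None of the 9 loci passed the test for a different number of peaks between the lines or the treatments, and neither did any other protein-coding locus. The smallest exact permutation p by line, adjusted over all loci tested, was 0.593. The failure to pass therefore does not set the members apart from other loci. Of the 9 loci, 0 had more or fewer peaks in every EpRas than in every EpH4 library, beside 4.27% (more) and 0.552% (fewer) of the 15756 protein-coding loci with a peak. For treated against untreated libraries the number was 0 of 9 too, beside 0.394% (more) and 0.0444% (fewer). Exact permutation p-values (two-sided, 4 against 4 libraries, 0.0286 at the least) ranged from 0.371 to 1 for the lines and from 0.257 to 1 for the treatments, so that 0 of 9 had an unadjusted p under 0.05, and all were 1 after Benjamini-Hochberg adjustment over the 15756 loci. EpRas means were higher at 2 loci, lower at 4 and equal at 3, whereas 65.9% of all tested loci had a higher and 20.1% a lower mean in EpRas cells.

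**Figure D2:**
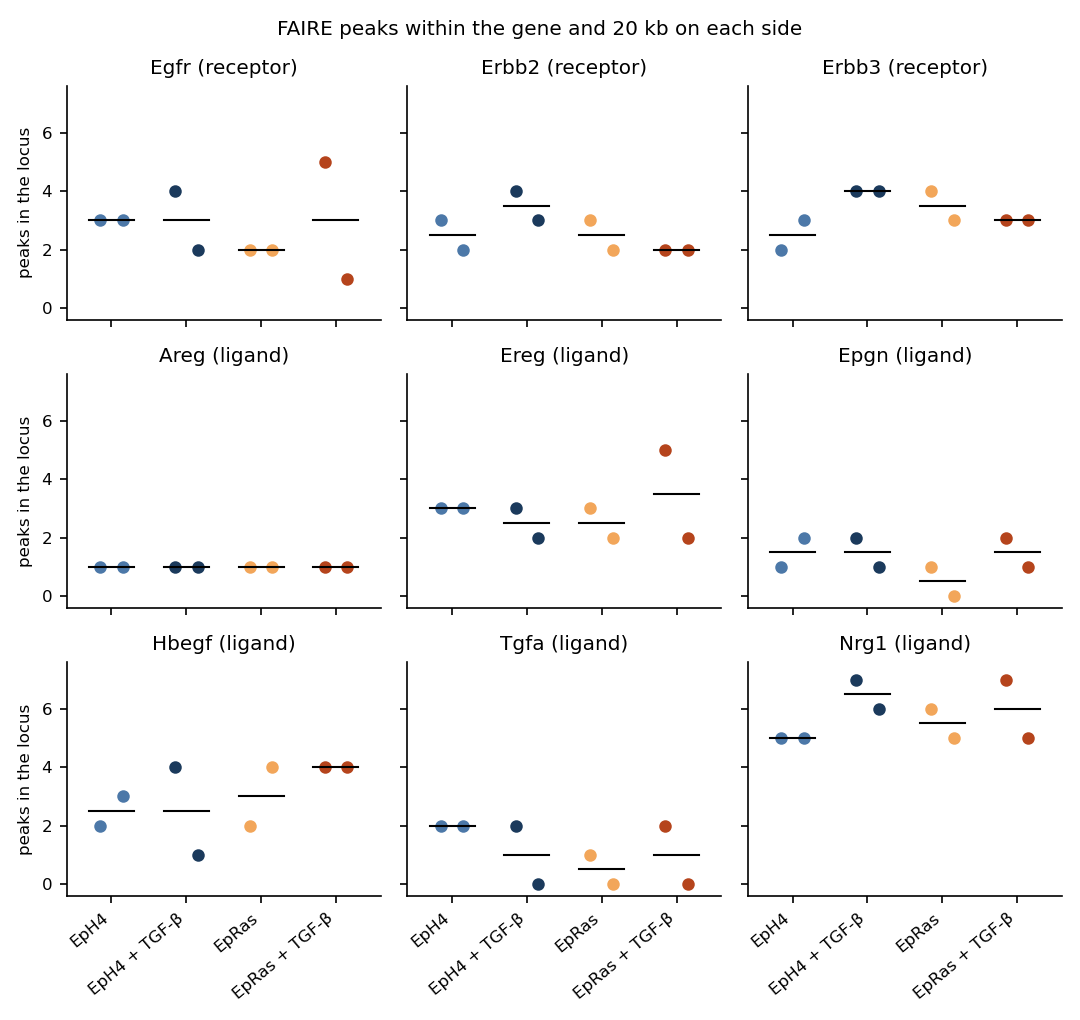
Number of FAIRE peaks in each of the 9 loci (y axis) by group (x axis); each point is 1 library, replicate 1 to the left of replicate 2, and the bar is the mean of 2 libraries. The lines overlap in every panel, and *Areg* has 1 peak in all 8 libraries.

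Relative to the length of each list, however, the 9 loci took a smaller part of the EpRas lists. Per 10000 peaks of a list, the member peaks numbered 17.7 and 18.3 in untreated and 17.3 and 18.5 in treated EpH4 cells, against 13.4 and 13.8 in untreated and 11.3 and 11.3 in treated EpRas cells. The ranges of the lines did not overlap. The totals themselves, 22, 24, 31 and 20 peaks in EpH4 and 23, 19, 31 and 19 in EpRas cells, did overlap. With the 10821 highest-scored peaks of each list, the totals were 17, 21, 18 and 20 in EpH4 and 14, 14, 12 and 13 in EpRas cells, again without overlap. No test was made on these sums, and no sums over other sets of loci stand beside them. The whole chromosomes of some of these genes also differed between the lines, as described below.

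On the scale of peaks per 10000, 3 of 9 loci were lower in every EpRas than in every EpH4 library, beside 5.5% of the loci tested, and 0 were higher in every EpRas library (3.93%). They were *Egfr*, *Epgn* and *Nrg1*. *Egfr* had 2.41, 2.29, 2.23 and 1.85 peaks per 10000 in EpH4 and 1.16, 1.45, 1.83 and 0.594 in EpRas cells, a difference of means of -0.936. *Epgn* had 0.802, 1.53, 1.12 and 0.924 in EpH4 and 0.581, 0, 0.732 and 0.594 in EpRas cells (-0.616). *Nrg1* had 4.01, 3.82, 3.9 and 5.54 in EpH4 and 3.49, 3.63, 2.56 and 2.97 in EpRas cells (-1.16). The gaps between the lines were narrow, the exact permutation p was 0.0286 for each, the smallest possible, and the adjusted p over all loci was 0.303. No tested locus had a smaller adjusted p on this scale. EpRas means were lower at 8 of 9 loci on this scale, beside 48.2% of all loci. For treated against untreated libraries 0 of 9 loci were apart (0.704% higher and 1.44% lower over all loci).

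With equal list lengths, *Ereg* was the 1 locus lower in every EpRas library, at 3, 3, 2 and 2 peaks in EpH4 and 0, 0, 1 and 1 in EpRas cells (difference -2, exact permutation p = 0.0286, adjusted p = 0.639), beside 2.26% of 14007 loci. No tested locus had a smaller adjusted p at equal length. None was higher (2.21%), and 0 of 9 were apart by treatment (0.228% higher and 0.321% lower over all loci). The means at equal length were lower in EpRas cells at 7 of 9 loci, beside 38.2% of all loci.

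The surroundings of 5 ligand genes also differed between the lines. Peaks within 5 Mb of *Areg*, *Ereg* and *Epgn*, without those of the locus itself, made up 51.9 to 65 per 10000 in EpH4 and 29.7 to 36.9 in EpRas lists. The ratio of the means was 0.562, 0.557 and 0.569. Around *Tgfa* the ratio was 0.696, while around *Hbegf* it was 1.32, and in all 5 cases the lines did not overlap. The windows of *Areg*, *Ereg* and *Epgn* largely coincide. The shares of the whole chromosomes also differed without overlap, with ratios of 0.741 for chromosome 5, 0.663 for chromosome 6 (*Tgfa*) and 1.33 for chromosome 18 (*Hbegf*). The differences were thus not particular to the surroundings of these genes. Around *Egfr* (1.01), *Erbb2* (1.09), *Erbb3* (1.05) and *Nrg1* (0.929) the lines overlapped. Counted per 10000 peaks of the gene's own chromosome, a scale added after the data had been seen, 0 of 9 loci were apart between the lines, beside 3.43% higher and 4.39% lower over all loci. *Egfr* then stood at 22.9 to 29.5 in EpH4 and 7.09 to 23.2 in EpRas cells, so that 1 EpRas library reached into the EpH4 range (means 14.9 ± 6.67 and 27.1 ± 2.97, SD, n = 4 each; exact permutation p = 0.0571, two-sided, adjusted p = 0.434). The EpRas means were still lower at 7 of 9 loci, beside 48.4% of all loci. The part of the surroundings in the difference between lines was not tested.

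**Figure D3:**
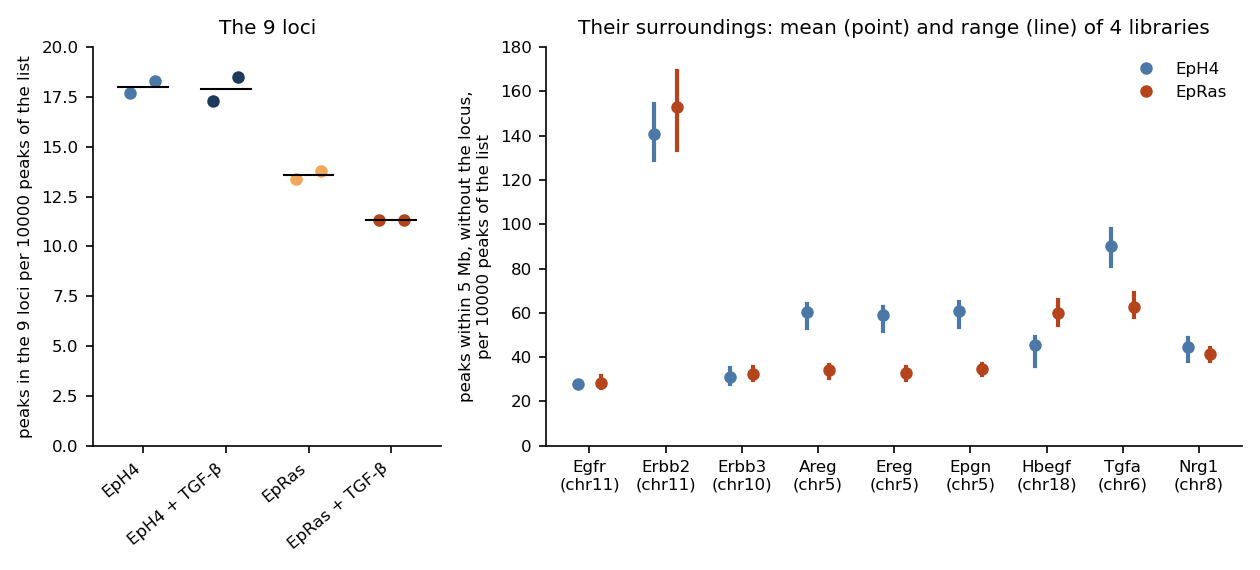
Left, peaks in the 9 loci per 10000 peaks of the list (y axis) by group, with 1 point per library and a bar at the mean of 2 libraries. Right, peaks within 5 Mb of each gene, without the locus itself, per 10000 peaks of the list (y axis), as the mean (point) and range (line) of 4 EpH4 and 4 EpRas libraries. EpRas libraries lie at 11.3 to 13.8 and EpH4 libraries at 17.3 to 18.5 on the left, and EpRas lies below EpH4 around *Areg*, *Ereg*, *Epgn* and *Tgfa* on the right.

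Receptor loci were more densely covered than ligand loci. The 3 receptor loci had 2.59 ± 0.554 and the 6 ligand loci 1.04 ± 0.241 peaks per 100 kb of window (SD, n = 8 libraries), receptors being higher in 8 of 8 libraries, and all gene loci had 1.19 ± 0.328. This order rested on *Nrg1*, whose window of 1109.5 kb made up most of the 1436.5 kb of ligand loci. Without *Nrg1*, a comparison chosen after the values had been seen, the ligand loci had 2.83 ± 0.892 and were higher than the receptors in 6 of 8 libraries.

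By locus, the mean density decreased in the order *Hbegf* (5.9 peaks per 100 kb), *Erbb3* (5.23), *Ereg* (4.87), *Erbb2* (4.02), *Epgn* (2.62), *Areg* (2.05), *Egfr* (1.34), *Tgfa* (0.934) and *Nrg1* (0.518). The ranges over the 8 libraries overlapped between all neighbors in this order. Receptor regions more often lay near a start site of any gene, 10 of 17 against 6 of 28 ligand regions, but 1 of 17 lay within 2 kb of the start of the locus gene itself, against 5 of 28. Regions near another gene's start numbered 3 of 5 at *Erbb2* and 5 of 5 at *Erbb3* but 1 of 7 at *Egfr*, so the trait was not shared by all receptors. The share over all regions is not given. AP1 words stood in 4 of 17 receptor (23.5%) and 11 of 28 ligand regions (39.3%). Regions called in all libraries numbered 2 and 4, and those called in 1 library 4 and 3, for receptors and ligands. These are descriptions, since genes are not replicates of a condition.

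**Figure D4:**
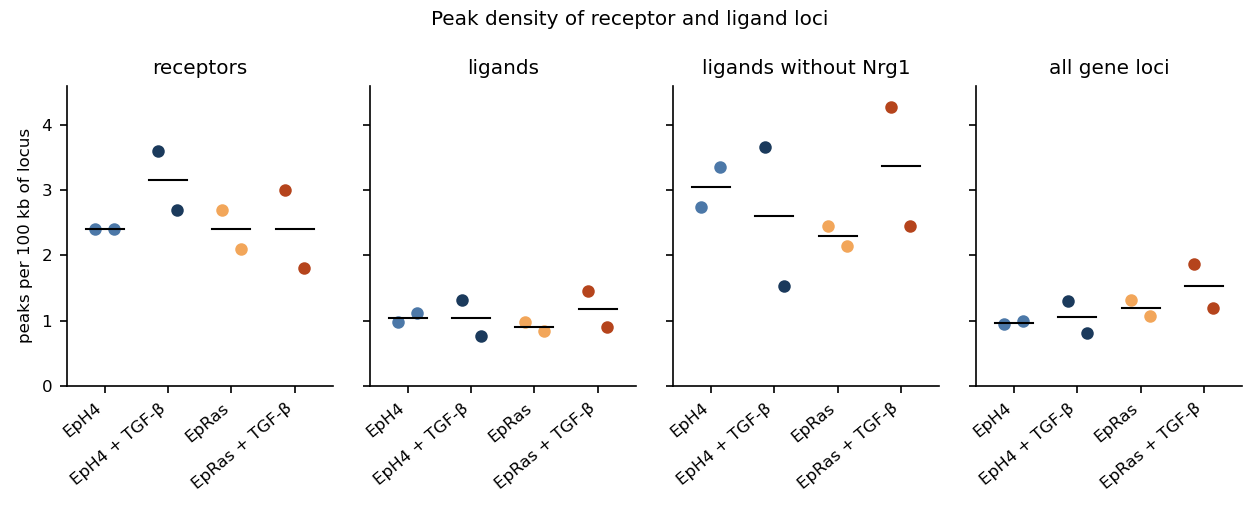
Peaks per 100 kb of locus (y axis) in receptor loci, ligand loci, ligand loci without *Nrg1* and all protein-coding loci, by group (x axis), with 1 point per library and a bar at the mean of 2 libraries. Receptors average 2.59 and ligands 1.04, and the ligands without *Nrg1* 2.83.

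Peaks at the genes' own starts were found in 5 libraries at *Erbb2*, 6 at *Nrg1*, 4 at *Hbegf*, 3 at *Ereg* and 3 at *Tgfa*, and in 0 at *Egfr*, *Erbb3*, *Areg* and *Epgn*. *Nrg1* has 7 annotated start sites and *Egfr* 2, against 1 for each other member, so the counts are not alike. The share of all genes with a peak at their start is not given, so these counts describe the members only. No start was called in all 8 libraries. The regions called in every library thus lay at other genes' starts (*Erbb3*), in introns (*Ereg* and *Nrg1*) or between genes (*Areg* and *Hbegf*).

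For these 6 regions the score percentile was compared between groups. None was higher or lower in every EpRas than in every EpH4 library, beside 6.57% (higher) and 1.43% (lower) of the 4259 regions called in all libraries, and none by treatment (2.42% and 0.446%). The largest differences of means between EpRas and EpH4 cells were 32.7 at *Hbegf* region 1, 26.1 at *Erbb3* region 3 and 23.9 at *Nrg1* region 4, with standard deviations within a line of up to 36.1. The smallest exact permutation p of the 12 comparisons was 0.143 (two-sided, n = 4 each). After adjustment over the 4259 regions, the smallest p of the 12 was 0.522, and that of any of the 4259 regions by line was 0.357. The median mean percentile of the 6 regions was 63.7, against 71.4 over the 4259 regions.

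**Figure D5:**
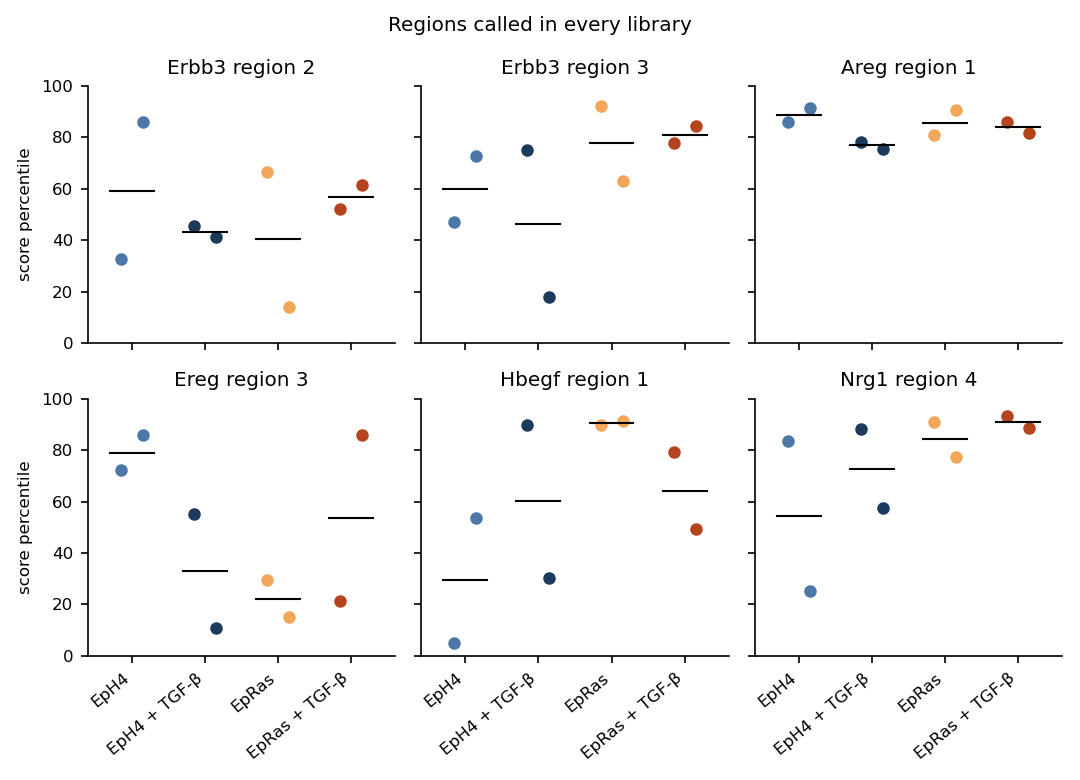
Score percentile within the list (y axis, 0 to 100) of the 6 regions called in every library, by group (x axis), with 1 point per library and a bar at the mean of 2 libraries. *Areg* region 1 stays between 75.5 and 91.6, while *Hbegf* region 1 spans 5.09 to 91.5.

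Of 18 further genes of the pathway (the receptor *Erbb4*, other ligands, adaptors such as *Grb2* and *Shc1*, the ubiquitin ligases *Cbl* and *Cblb*, inhibitors such as *Errfi1* and *Lrig1*, and the sheddases *Adam10* and *Adam17*), 16 had a peak in at least 1 library and 2, *Erbb4* and *Nrg3*, had none. In neither contrast was any of the 16 higher or lower in every library of a side, and with backgrounds of 4.27% and 0.552% by line and 0.394% and 0.0444% by treatment a count of 0 is near what all loci give.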

How the data were processed

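FAIRE-seq had been performed on 8 libraries in 4 groups, which the sample labels name. As the study's methods and the submitters' processing notes state, the authors used an Ion Proton, shortened reads to a common length, aligned them with Bowtie2 (mm10) and ran MACS2 (2.0.9) under a q-value limit, with 1 list per library. The deposited lists held a position and a score per peak, and the unit of this deposited score was not given. Its rank within a list was therefore used, except under the stricter score limit. That limit kept peaks scored at or above 15.51, the median over all lists, and so compared scores between lists. Read depth was unknown.

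Genes and start sites were from GENCODE M21 (basic) and sequences from GRCm38.p6. Windows were the gene span plus 20 kb. A peak lay at a start if its midpoint was within 2 kb. Motif words were searched in the 300 bp around region midpoints. Where several peaks of a list overlapped a region, the highest percentile was kept. A region counted as gained or lost within a line if both libraries of one treatment and neither of the other called it.

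Means of 4 against 4 libraries were compared by exact permutation (70 assignments, two-sided), with Benjamini-Hochberg adjustment over 15756 loci or 4259 regions, in Python 3.11.15 (numpy 2.4.6, pandas 2.3.3, matplotlib 3.10.9). The test was first run on simulated peak numbers, with changes placed only in loci with many peaks. Among the members, *Nrg1* alone had that many, so the chance of finding a change at the other loci was not measured. The study calls its replicates biological but the labels do not say whether they were separate cultures, so p-values measure only the spread between these libraries. Each side of a test by line held treated and untreated libraries, and each side of a test by treatment held both lines. The standard deviations and p-values of 4 libraries therefore include differences by the other factor. Members, lists and tests were chosen with earlier results of these data known. By rule, named regions were those separating lines or treatments, those in treated EpRas cells alone, those called in all libraries, and those at own starts; other regions were named after their values were seen, and 1 region is not reported here beyond its part in the counts. Deviations of same-numbered replicates of different groups were weakly correlated (-0.0647 to 0.175 in 6 pairs of groups, 2 over 0.1), and replicate numbers were not used as a block in the main tests. Replicate 1 had the longer list in treated EpH4 (17927 against 10821), untreated EpRas (17210 against 13784) and treated EpRas cells (27337 against 16833). In untreated EpH4 cells it had the shorter one (12462 against 13092). A shared replicate effect was not tested. Alternatives were a stricter score limit, equal list lengths, leaving out each library, other overlaps and windows, list and chromosome scaling, covered bases, no peak minimum and a replicate block.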

Additional observations from a re-analysis of the deposited data

Results flagged for a closer look

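*Egfr* region 6, set to percentile 0 where it was not called, was singled out because every TGF-β-treated EpH4 library lay above both untreated ones (71.7 and 70.9 against 14.3 and 48) and every treated EpRas library lay below both untreated ones (64.7 and 0 against 65.5 and 71.1). The TGF-β effect was 40.1 percentile points in EpH4 and -36 in EpRas cells, so the EpRas effect minus the EpH4 effect was -76.1 points. The difference was not tested. Peak numbers of the 9 loci and percentiles of all 45 regions were screened in this way, and *Egfr* region 6 alone met the rule. *Ereg* region 3 had a larger difference between the lines, 77.8 points, but its treated and untreated EpRas libraries overlapped. The share of regions over the genome that meet the rule is not given. In EpRas cells the first treated library lay within 1 point of the lower untreated one, and the effect rests on the second, in which the region was not called.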

How the results depend on the processing

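Lists without read counts limit what can be seen: an absent call may be a weak one, and with 4 libraries a side no p under 0.0286 is possible. With a stricter score limit, regions separating the lines numbered 0, gains 1 in EpH4 and 3 in EpRas cells, regions in both treated EpRas libraries alone 1, regions called in all libraries 1, and receptors exceeded ligands by 0.539 rather than 1.54 peaks per 100 kb. With equal list lengths these numbers were 0 for separating regions, 0 EpH4 gains, 1 EpH4 loss, 1 EpRas gain, 3 regions called in all libraries and 0.957 peaks per 100 kb, and 1 locus was apart between the lines. Per 10000 peaks 3 loci were. Over all 37230 regions, equal lengths gave 870 EpH4 gains, 795 EpH4 losses, 1003 EpRas gains and 2622 regions called in all libraries. The full lists gave 1217, 626, 2843 and 4259. Counts over the genome are not given for the other settings. Where a peak had to cover at least 50% of the region (a peak always has its whole length in a merged region, so only this side of the planned condition was used), EpRas losses numbered 0. Leaving out 1 library at a time gave 1 to 3 regions separating the lines, 0 to 1 separating the treatments, 2 to 6 EpH4 gains, 0 to 3 EpH4 losses, 0 to 8 EpRas gains (8 without replicate 2 of treated EpRas cells), 1 to 4 EpRas losses (4 without replicate 1 of treated EpRas cells), 0 to 2 regions in treated EpRas cells alone, and 0 to 2 regions apart in percentile between the lines (2 without replicate 2 of untreated EpRas cells). The EpH4 gains rose to 6 without replicate 2 of untreated EpH4 cells to 5 without replicate 1 of untreated EpH4 cells, and to 5 without replicate 2 of treated EpH4 cells. Each setting leaves fewer peaks or libraries, and a group with 1 library left meets the rule for a gain or loss more easily. The cause of these changes was not tested.

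Of 288 locus differences under alternatives, 28 had the other sign. By line, *Egfr* (0.5), *Erbb2* (1) and *Ereg* (-0.75) turned under the stricter limit, *Ereg* also at equal length (-2, exact permutation p = 0.0286), per 10000 peaks (-0.502) and without treated EpRas replicate 1 (-0.417), and *Hbegf* per 10000 peaks of its chromosome (-13). By treatment, *Epgn* turned under the stricter limit (-0.25), and *Egfr*, *Epgn*, *Hbegf* and *Nrg1* at equal length (-0.25 each). Per 10000 peaks, *Egfr* (-0.202), *Erbb2* (-0.0514), *Ereg* (-0.339) and *Hbegf* (-0.241) turned, and per 10000 peaks of the chromosome *Egfr* (-0.914), *Erbb3* (-0.847), *Ereg* (-3.74), *Hbegf* (-22.7) and *Nrg1* (-4.29). *Ereg* turned with a 5 kb window (-0.25) and *Tgfa* with 50 kb (0.25). Leaving out 1 library gave -0.417 to 0.583 for *Ereg* by line and, by treatment, -0.167 for *Erbb2* without treated EpH4 replicate 1, -0.667 to 0.0833 for *Tgfa*, -0.167 to 1.17 for *Egfr* and -0.417 to 0.583 for *Ereg*, the last pair turning without treated EpRas replicate 1. With a replicate block, 0 loci were called (exact permutation p 0.167 to 1 over both contrasts, 0.0556 at the least), but no locus can pass 0.05 under the block, so this says nothing about stability. Without the minimum of 1 peak, 21951 loci were tested and the members' adjusted p stayed at 1.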
